A study of Caenorhabditis elegans with 2 samples.

Results

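The genes described here are the 8 that encode the subunits of the cytosolic chaperonin CCT in the nematode Caenorhabditis elegans, cct-1 to cct-8, out of 19973 protein-coding genes on the 6 nuclear chromosomes. They were chosen by name with the peak lists already known, so they count as selected on the measured values, and a peak was linked to a gene when its summit lay between 1000 bp upstream and 500 bp downstream of where a protein-coding transcript begins. All 8 symbols were found in the annotation. CEH-32, which belongs to the sine oculis family of homeodomain proteins and binds DNA, had been profiled by chromatin immunoprecipitation and sequencing (ChIP-seq) in whole worms of strain OP516. These were hermaphrodites at the fourth larval stage (L4), taken 52 hours after synchronisation of starved first-stage larvae. The strain carries unc-119(tm4063) on chromosome III and the transgene insertion wgIs516, which supplies CEH-32 with a GFP-FLAG tag at its C terminus, and an antibody against GFP was used. There was 1 group of 2 biological replicates and no second condition. Both replicates came from this single transgenic strain, and the signal is that of the tagged copy. In whole animals, strong binding in few cells and weak binding in many cannot be told apart.

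CCT, also called TRiC, is a barrel of stacked rings in which each ring holds the 8 different subunits side by side. It uses ATP to fold newly made proteins inside its cavity, and actin and tubulin are its best known clients. Prefoldin hands unfolded actin and tubulin to it, and the HSP70 system delivers other clients. In worms CCT is needed for embryonic development and for a normal microtubule cytoskeleton, and extra CCT-8 in somatic cells has been linked to longer life.

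Of the 8 CCT genes, 2 had a promoter peak in the optimal list, the short list of peaks that passed the authors' reproducibility analysis. These were cct-8, the gene of the theta subunit, with a signal of 161, and cct-1, the gene of the alpha subunit, with a signal of 113. The eta subunit gene cct-7 had a peak of signal 70.8 in the longer pooled list, below the lowest optimal peak at 81.6. The delta subunit gene cct-4 had a weak peak in replicate 1 alone. The other 4 genes, cct-2 (beta), cct-3 (gamma), cct-5 (epsilon) and cct-6 (zeta), had none in any of the 4 lists. The signal is the value that the authors' peak caller gave to each peak, and its scale differs between lists.

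The sequences under the summits of the 3 genes with a pooled peak are shown because later results on neighbouring starts and on motifs refer to them. Each runs 5′ to 3′ on the strand of its CCT gene, from 100 bp before to 100 bp after the pooled summit, on build ce11. Capitals mark matches to GAANNTTC or TTCNNGAA, pairings of the unit bound by heat shock factor. The windows are chrII:8185121-8185321 on the plus strand for cct-1, chrV:1871906-1872106 on the plus strand for cct-7 and chrIV:1094252-1094452 on the minus strand for cct-8.
cct-1: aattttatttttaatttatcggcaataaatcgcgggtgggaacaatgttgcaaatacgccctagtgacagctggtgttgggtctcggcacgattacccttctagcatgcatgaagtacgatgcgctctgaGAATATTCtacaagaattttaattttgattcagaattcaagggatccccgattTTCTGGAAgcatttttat
cct-7: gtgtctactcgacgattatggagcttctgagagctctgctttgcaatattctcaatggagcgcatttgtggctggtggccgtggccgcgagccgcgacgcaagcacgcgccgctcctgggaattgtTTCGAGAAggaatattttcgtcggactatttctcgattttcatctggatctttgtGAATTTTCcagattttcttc
cct-8: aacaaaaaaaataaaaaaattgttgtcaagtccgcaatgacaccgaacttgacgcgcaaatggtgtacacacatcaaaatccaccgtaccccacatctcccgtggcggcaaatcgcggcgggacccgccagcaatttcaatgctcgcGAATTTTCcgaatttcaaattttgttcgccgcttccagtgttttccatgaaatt

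The 4 lists on build ce11 were the optimal list of 412 peaks, the pooled relaxed list of 10485 peaks, and the relaxed lists of replicate 1 and replicate 2 with 14069 and 14710 peaks. The relaxed lists hold background as well as peaks. The 412 optimal peaks were the 412 strongest of the pooled list, so a count in the optimal list and a count in the pooled list are not separate evidence. The files hold no read counts, and the depth behind each list is unknown. With 1 group, 2 replicates and members selected on these lists, no test was made, and counts are set beside the same count over all nuclear protein-coding genes.

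An optimal summit lay in the window of 2 of the 8 CCT genes (25%), beside 1.41% of all nuclear protein-coding genes (281 of 19973). In the pooled list the count was 3 of 8 (37.5%) beside 20.1% of all genes. In replicate 1 it was 4 of 8 (50%) beside 25.3%, and in replicate 2 it was 3 of 8 (37.5%) beside 25.5%. A summit in both replicates was present at 3 of 8 CCT genes beside 12.6% of all genes. This count asks only that each replicate has a summit in the window, not that the summits coincide. No summit in any of the 4 lists was found at 4 of 8 CCT genes (50%), beside 60.7% of all genes. The members were chosen by these lists, so nothing is read from the distance between such shares.

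The strongest CCT peak lay upstream of cct-8 (WBGene00021934, chromosome IV, 1087108 to 1093920, minus strand), the theta subunit gene. The pooled peak spanned 1094142 to 1094561 and had its summit at 1094352, 432 bp upstream of the outermost start. Its signal of 161 ranked 82 of the 412 optimal peaks (the top 19.9%) and the same among the 10485 pooled peaks (the top 0.782%). In replicate 1 the signal was 71.2 with the summit 446 bp upstream, rank 127 of 14069 (the top 0.903%). In replicate 2 it was 86.0 with the summit 433 bp upstream, rank 79 of 14710 (the top 0.537%). The peak was thus among the strongest 1% of each of the 3 relaxed lists. Weak peaks lay near cct-8 as well. A pooled peak of signal 28.2 (rank 9316) had its summit 378 bp downstream of the outermost start, where replicate 2 had 19.3. A replicate 1 peak of 19.6 lay 492 bp downstream of the inner of the 2 annotated starts.

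The peak of cct-1 (WBGene00000377, chromosome II, 8185443 to 8187601, plus strand), the alpha subunit gene, spanned 8185011 to 8185430. Its summit at 8185221 lay 222 bp upstream of the start. The signal of 113 ranked 189 in both the optimal list (the top 45.9%) and the pooled list (the top 1.80%). In replicate 1 the signal was 48.7 at 258 bp upstream, rank 307 (the top 2.18%). In replicate 2 it was 61.9 at 236 bp upstream, rank 174 (the top 1.18%). A further replicate 2 peak of 16.7 lay 8 bp upstream of the start, close to the lowest signal of that list at 16.2.

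The peak of cct-7 (WBGene00020391, chromosome V, 1872246 to 1875505, plus strand), the eta subunit gene, was in the pooled list but not in the optimal one. It spanned 1871796 to 1872215 with its summit at 1872006, 240 bp upstream of the outermost start. The pooled signal of 70.8 ranked 578 (the top 5.51%), with a −log10 q of 2.02 beside the 2.18 that all optimal peaks carry. In replicate 1 the signal was 24.5 at 219 bp upstream, rank 1810 (the top 12.9%). In replicate 2 it was 45.8 at 238 bp upstream, rank 411 (the top 2.79%). The peak was therefore high in its list in replicate 2 and lower in its list in replicate 1. A second replicate 2 peak of 20.2 lay 37 bp upstream of the start.

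At cct-4 (WBGene00000379, chromosome II, 8283667 to 8285711, plus strand), the delta subunit gene, a summit fell in the window in replicate 1 alone. The peak spanned 8282589 to 8283018, with its summit at 8282804, 863 bp upstream of the nearest start and inside the neighbouring gene nst-1 (8281162 to 8283208), which encodes a nucleostemin GTPase. Its signal of 18.4 ranked 4717 of 14069 (the top 33.5%) with a −log10 q of 0.31. It was the member summit closest to the upstream edge of the window on the inside. On the outside, the nearest replicate 1 summit was that of cct-3, 1586 bp upstream with a signal of 12.9, followed by that of cct-5, 1955 bp upstream with 17.3. In signal, cct-1 at 113 was the member just above the optimal list's lowest value of 81.6, and cct-7 at 70.8 the one just below it.

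**Figure D1:**
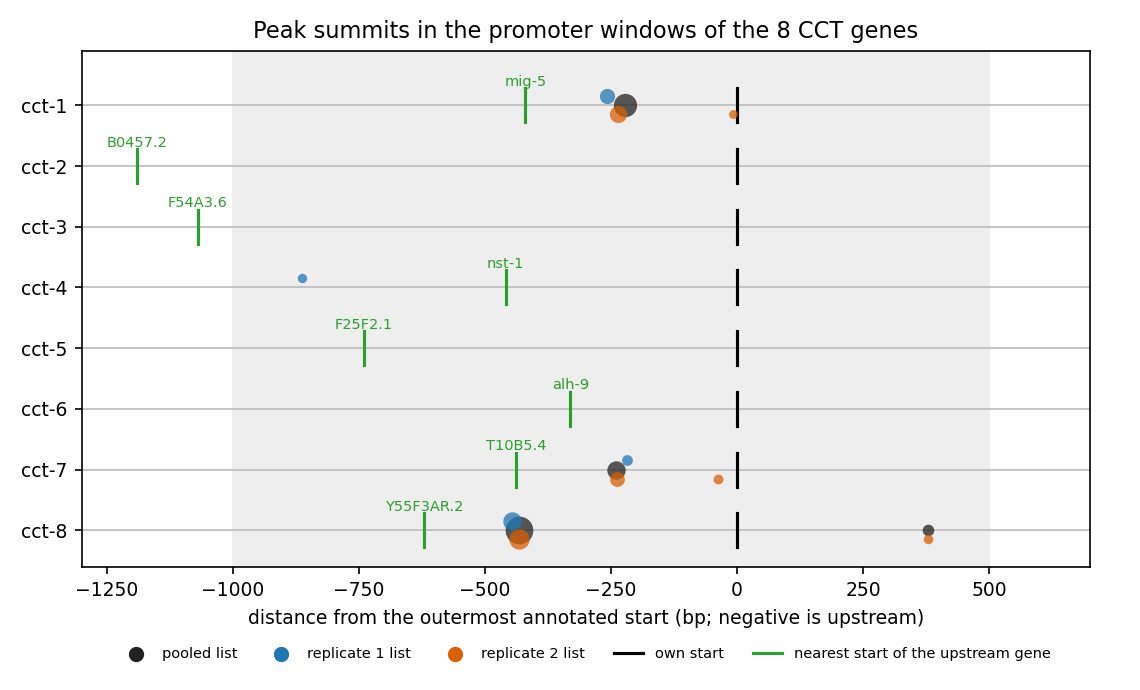
Positions of peak summits around the outermost annotated start of each CCT gene, in bp with upstream negative. The grey band is the promoter window, the area of a dot grows with the signal of the peak in its own list, the black dashes are the gene's own start, and the green dashes are the nearest start of the gene upstream. The large dots of cct-1, cct-7 and cct-8 sit 222 to 432 bp upstream in the pooled list, cct-4 has a single dot from replicate 1, and cct-2, cct-3, cct-5 and cct-6 have none in the band.

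The replicates placed the 3 shared peaks within 22 bp of each other. Replicate summits were 13 bp apart at cct-8, 19 bp apart at cct-7 and 22 bp apart at cct-1, beside a median of 27 bp over the 356 nuclear optimal peaks matched in both replicates within 100 bp. The signal averaged 78.6 ± 10.5 (SD, n = 2) at cct-8, 55.3 ± 9.3 (SD, n = 2) at cct-1 and 35.1 ± 15.1 (SD, n = 2) at cct-7, as the caller scaled each replicate's list. The order cct-8, cct-1, cct-7 was the same in the pooled list and in each replicate, and the ranges of the replicate values did not overlap. For cct-1 and cct-7, neighbours in that order, the gap between the means was smaller than the sum of their SDs, and 2 replicates allow no test of it.

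Replicate 2 gave the higher value at all 3 genes. The ratio of replicate 2 to replicate 1 was 1.21 at cct-8, 1.27 at cct-1 and 1.87 at cct-7. Over the 356 matched optimal peaks the median ratio was 1.02, with a 10th to 90th percentile range of 0.625 to 1.71. Over the 2534 matched pooled peaks it was 1.22, with a range of 0.729 to 1.90. The ratios of cct-8 and cct-1 lay inside both ranges, and that of cct-7 lay inside the pooled range, close to its upper end. The 2 replicate signals summed to 157 at cct-8, 111 at cct-1 and 70.3 at cct-7, close to the pooled values of 161, 113 and 70.8. The pooled list derives from the reads of both replicates, so this closeness is not an independent measurement.

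**Figure D2:**
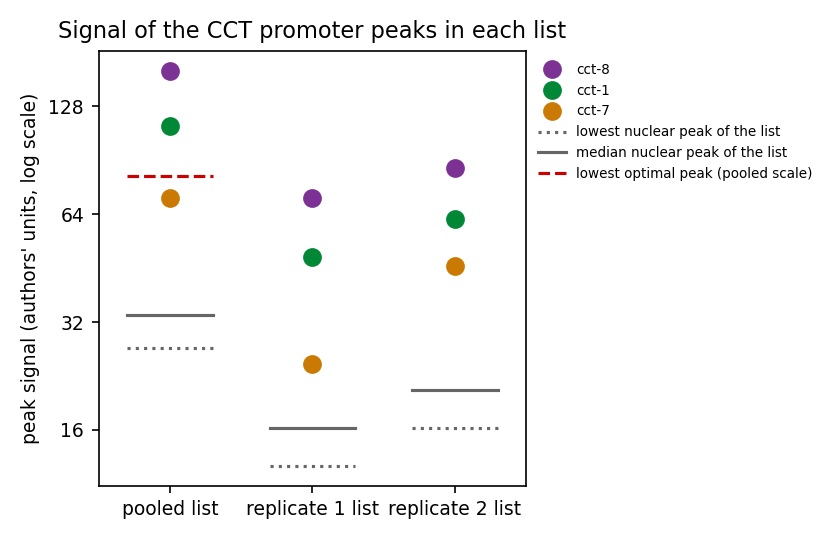
Signal of the promoter peak of cct-8, cct-1 and cct-7 in the pooled list and in each replicate list, in the authors' units on a log axis. Dotted and solid lines give the lowest and the median nuclear peak of each list, and the dashed line the lowest optimal peak on the pooled scale, at 81.6. In each list cct-8 is highest and cct-7 lowest, all 3 lie above the list's median, and cct-7 falls below the dashed line.

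All 3 summits lay upstream of the CCT gene and between it and a gene on the opposite strand. The median distance from the CCT start was 240 bp in the pooled list, 258 bp in replicate 1 and 238 bp in replicate 2. Over the 281 genes linked in the optimal list the median was 269 bp, and 92.5% of their strongest summits lay upstream. Over the 4005 genes linked in the pooled list the median was 299 bp, with 72.2% upstream. The summits of cct-1 and cct-7 lay closer than both medians, and that of cct-8 lay farther.

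None of the 3 pooled summits was nearest to the start of its CCT gene. The cct-1 summit lay 198 bp from the start of mig-5 (WBGene00003241, minus strand), a Dishevelled-family gene of Wnt signalling, and 222 bp from that of cct-1. The cct-7 summit lay 199 bp from the start of T10B5.4 (WBGene00020390, minus strand) and 240 bp from that of cct-7. It also fell within T10B5.13 (WBGene00195501, 1871980 to 1872075), an annotated noncoding RNA gene, 26 bp after its start. In replicate 1 the cct-7 summit lay 219 bp from the cct-7 start, about as far as from that of T10B5.4. The cct-8 summit lay 189 bp from the start of Y55F3AR.2 (WBGene00021933, plus strand) and 432 bp from that of cct-8. Between the summit and the cct-8 start lies Y55F3AR.4 (WBGene00196098, 1094087 to 1094209), another noncoding RNA gene, whose start was 265 bp from the summit. Each of these peaks is linked to the neighbour as well as to the CCT gene, and which of the genes it belongs to cannot be told apart from position.

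This count of 0 of 3 is for the pooled summits. The strongest summit was nearest the gene's own start at 210 of the 281 optimal-linked genes (74.7%). For the pooled-linked genes it was so at 3366 of 4005 (84.0%). The share depends on how genes are arranged. Where the nearest upstream gene is head to head, with the starts within 1000 bp, it was 48 of 94 genes (51.1%) in the optimal list and 457 of 873 (52.3%) in the pooled list. A summit between such starts is linked to both genes but cannot be nearest to both, so these shares are in part fixed by the linking. Where the upstream gene is not head to head the share was 83 of 94 (88.3%) and 1928 of 2058 (93.7%). The 3 CCT genes belong to the first class.

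All 8 CCT genes, linked or not, had a protein-coding gene head to head upstream, an arrangement shared by 9071 nuclear protein-coding genes (45.4%). Neighbouring starts were among the measures named when the genes were chosen, so this count is a description. The starts were 331 bp apart at cct-6 (alh-9, of the aldehyde dehydrogenase family), 420 bp at cct-1 (mig-5), 439 bp at cct-7 (T10B5.4) and 459 bp at cct-4 (nst-1). They were 621 bp apart at cct-8 (Y55F3AR.2), 741 bp at cct-5 (F25F2.1), 1070 bp at cct-3 (F54A3.6) and 1190 bp at cct-2 (B0457.2). The median over the CCT genes was 540 bp, beside 1563 bp over all head-to-head genes. In 6 of the 8 the starts were within 1000 bp, as for 17.5% of all genes. The annotated starts are close to the coding sequence, with 1 to 30 bp between the outermost start and the start codon.

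A larger share of genes was linked in that class over the whole genome. A summit between head-to-head starts within 1000 bp falls in the windows of both genes, so a single peak counts for each of them. The shares are therefore of genes, and peaks were not counted by class. An optimal summit was linked to 2.69% of the 3492 genes with head-to-head starts within 1000 bp, to 2.06% of all 9071 head-to-head genes and to 0.862% of the 10902 other genes. For the pooled list the shares were 25%, 21.5% and 18.9%. Among the 6 CCT genes of the close class, 3 had a pooled peak and 2 an optimal one. The neighbours mig-5 and Y55F3AR.2 were linked in all 4 lists and T10B5.4 in the pooled and both replicate lists, through the same peaks. Of the other neighbours, F54A3.6 and nst-1 were linked in replicate 1 only, and B0457.2, F25F2.1 and alh-9 in no list.

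The 5 CCT genes without a pooled promoter peak had their nearest pooled summit downstream of the start. At cct-5 (WBGene00000380, chromosome III, 4499188 to 4508114, minus strand), the epsilon subunit gene, it lay 3483 bp into the gene, with a pooled signal of 48.6 (rank 1528) and replicate signals of 20.3 and 29.9. At cct-3 (WBGene00018782, chromosome II, 2233540 to 2243539, plus strand), the gamma subunit gene, it lay 7135 bp into the gene with a pooled signal of 37.7 (rank 3523), and a matching summit was found in replicate 2 alone, at 32.9. Both were inside introns.

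At the 3 shorter genes it lay beyond the gene's end. For cct-4 it was 179 bp past the end with a signal of 39.1 (rank 3154) and replicate signals of 14.9 and 21.0. For cct-2 (WBGene00000378, chromosome II, 8927741 to 8929815, plus strand), the beta subunit gene, it was 281 bp past the end with a signal of 28.3 (rank 9193), inside mrpl-50, which encodes a mitochondrial ribosomal protein. A matching summit was found in replicate 1 alone, at 19.1. For cct-6 (WBGene00000381, chromosome III, 5853530 to 5855687, minus strand), the zeta subunit gene, it was 70 bp past the end with a signal of 30.8 (rank 6977). That summit, matched in replicate 1 alone at 16.4, lay 191 bp upstream of ddx-23, which encodes a splicing helicase of the DEAD-box family. The nearest optimal summits were much farther, from 32449 bp for cct-5 to 740526 bp for cct-3, and the one nearest cct-4, at 98446 bp, was the cct-1 peak.

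No optimal summit fell inside the body of a CCT gene. The pooled list had 10 summits in the 37.4 kb of the 8 gene bodies (0.267 per kb), beside 6461 in 64439 kb over all nuclear protein-coding genes (0.100 per kb). Of these, 5 were in cct-5 (0.560 per kb) and 3 in cct-8 (0.440 per kb), with 1 each in cct-3 and cct-7 and none in cct-1, cct-2, cct-4 and cct-6. The cct-7 summit, of signal 30.8, had no summit within 100 bp in either replicate. Of the 3 in cct-8, that of signal 28.2 was the weak peak in the promoter window described above. Among the 3231 genes over 5 kb long, which include cct-3, cct-5 and cct-8, the density was 0.108 per kb. In the 4 genes with no pooled summit the body is short, from 2045 to 2159 bp.

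The longest intron of cct-5, 6134 bp from 4501510 to 4507643, held 4 of its 5 pooled summits. Their pooled signals were 48.6, 44.3, 43.2 and 32.9, and replicate 2 had a summit within 100 bp of each, at 29.9, 28.2, 29.0 and 30.6. Replicate 1 had a matching summit at the first 3, with signals of 20.3, 15.8 and 16.4, and none at the last. The fifth, at 27.2, lay in a coding exon and was matched in replicate 1 alone, at 15.9. In cct-8 a pooled peak of 42.9 lay in an intron 2319 bp from the outermost start, with 19.6 and 25.9 in the replicates. Another of 34.3 lay in a coding exon 3936 bp from that start and was matched within 100 bp in replicate 1 alone, at 13.1. A replicate 2 summit of 20.2 lay within 100 bp of that replicate 1 summit, though not of the pooled one. All of these pooled summits fall below the optimal list's lowest signal, and most lie above the pooled median of 33.5.

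**Figure D3:**
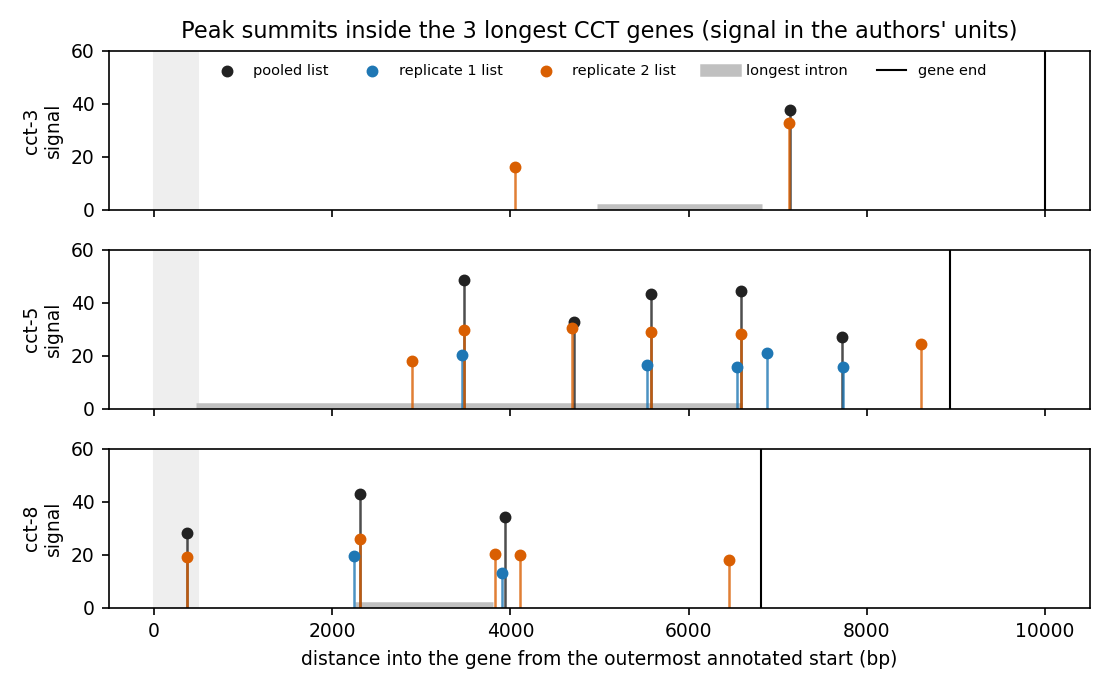
Peak summits inside the 3 CCT genes over 5 kb, plotted by distance from the outermost start in bp and by signal in the authors' units. Stems are coloured by list, the grey band is the downstream part of the promoter window, the grey bar on the axis is the longest intron, and the vertical line is the gene's end. The cct-5 panel holds 5 pooled summits, 4 of them over the long intron, against 1 in cct-3 and 3 in cct-8.

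Sequence under the 3 summits varied in base composition. The GC content of the 101 bp centred on the summit was 45.5% at cct-1, 60.4% at cct-7 and 57.4% at cct-8. The median was 50.5% over the 388 nuclear optimal peaks and 38.6% over the 10461 nuclear pooled peaks. Thus cct-7 and cct-8 lay above both medians, and cct-1 between them. Over the 201 bp printed above, the values were 39.3%, 49.3% and 45.3%.

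Letters of 6 motifs were searched on both strands. GAGAGA, a repeat found under many optimal peaks, was in none of the 3 CCT windows of 101 or 201 bp. It was in 28.1% of optimal and 9.89% of pooled windows of 101 bp, and in 43.0% and 17.5% of those of 201 bp. It was also in none of the 8 CCT promoters, taken as the 500 bp upstream of the outermost start, beside 30.0% of all promoters. TGATAC, a core of sine oculis sites, TAATTA, a homeodomain core, and TGATAA, of the GATA type, were in 0 of 3 windows of 201 bp. They were also uncommon elsewhere, TGATAC in 4.38% of optimal and 5.29% of pooled windows of that length, TAATTA in 4.90% and 12.2%, and TGATAA in 5.93% and 13.9%, so nothing is read from 0 of 3. Among the 8 promoters TGATAC was in that of cct-5 (15.4% of all promoters), TAATTA in those of cct-4 and cct-5 (26.5%), and TGATAA in none (43.7%).

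The heat shock units, each of which reads the same on both strands, were present more widely. GAANNTTC was in all 3 CCT windows of 201 bp, beside 8.76% of optimal and 11% of pooled windows of that length. TTCNNGAA was in those of cct-1 and cct-7, beside 8.25% and 11.2%. In the narrower windows of 101 bp only cct-1 had the first and only cct-7 the second, and cct-8 had neither. Of the 8 promoters, 5 held GAANNTTC (29.8% of all promoters) and 6 held TTCNNGAA (29.1%). Each of the 8 held at least 1 of the pair, beside 48.3% of all promoters, and this includes the 4 genes with no linked peak. A match of letters is a description and not a site.

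Other genes of protein folding, of CCT clients and of the proteasome were described by counts. The lists were of prefoldin, actin, tubulin, chaperone partner and proteasome genes. Prefoldin, which delivers clients to CCT, had a pooled peak at 5 of its 6 genes (83.3%) and an optimal peak at none. A summit in both replicates was found at 3 of the 6, beside 12.6% of all genes. The replicate summits need not coincide. At pfd-4 the strongest lay 62 bp from the start in replicate 1 and 903 bp from it in replicate 2. The strongest prefoldin peak was at pfd-1, with a pooled signal of 66.9, close to the 70.8 of cct-7. Of the clients, 3 of 5 actin genes had a pooled peak (60%) and 1 an optimal peak (20%), at act-4 with a signal of 94.0 and the summit 65 bp from the start. Of 16 tubulin genes, 4 had a pooled peak (25%) and none an optimal one. The alpha tubulin gene tba-2 came nearest, with a pooled signal of 81.3.

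Of 15 chaperone partner genes, which cover HSP70, HSP90 and HSP60 proteins and their cochaperones, 11 had a pooled peak (73.3%) and 7 an optimal one (46.7%). Beside the 161 of cct-8, the strongest were hsp-60, the mitochondrial chaperonin, at 170, hsp-90 at 153, and hsp-3, an HSP70 of the endoplasmic reticulum, at 102. The first 2 of these summits were also nearer to another gene, with Y22D7AL.10 at 192 bp against 621 bp for hsp-60, and C47E8.4 at 275 bp against 400 bp for hsp-90. Of 32 proteasome genes, 10 had a pooled peak (31.2%) and 1 an optimal one (3.12%), at rpn-3, a subunit of the lid, with a signal of 98.0. That peak is also linked to hsp-110. The background shares remain 20.1% for the pooled and 1.41% for the optimal list.

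**Figure D4:**
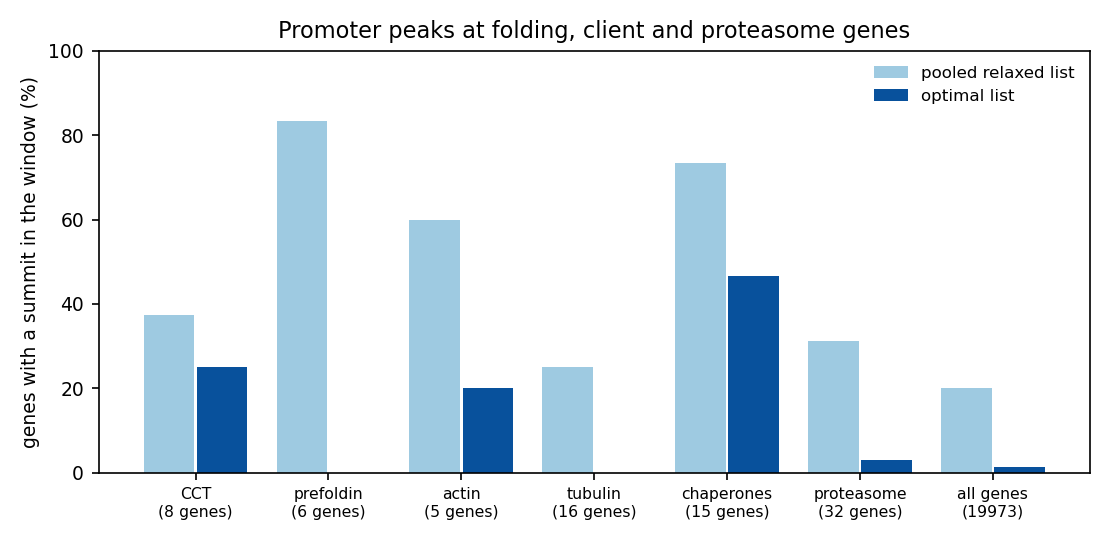
Share of genes with a peak summit in the promoter window, in %, for each gene list and for all nuclear protein-coding genes, in the pooled relaxed and the optimal list. The CCT bars stand at 37.5% and 25%, the chaperone partners at 73.3% and 46.7%, prefoldin at 83.3% and 0, and all genes at 20.1% and 1.41%.

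The genes whose peak was most like that of cct-8 were ranked by Euclidean distance over the log2 signals of the pooled list and both replicates, among 1293 genes with a value in all 3 lists. Y55F3AR.2 had a distance of 0 because it shares the peak. Next was eif-3.C, a subunit of the translation initiation factor eIF3, at 0.156, with signals of 164 pooled, 78.8 in replicate 1 and 83.4 in replicate 2. The next was cbp-1, a histone acetyltransferase of the CBP family, at 0.162, with 150, 66.1 and 81.8. Their summits lay 240 bp and 873 bp from their starts, beside 432 bp at cct-8.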

How the data were processed

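CEH-32 ChIP-seq peak lists were deposited for 2 replicates of whole L4 worms, per the labels. The authors' lists on build ce11 were a relaxed list for each replicate, a relaxed list from both replicates' alignments with a control, and an optimal list after an analysis of reproducibility between replicates (irreproducible discovery rate), per the deposited notes. The signal of each peak and its −log10 q-value were deposited by the authors and used as given, the signal for description and for ranks inside each list. The column of −log10 q was read from the usual layout of such files, which carry no header. For the aligner, the peak caller and its thresholds nothing is stated in these sources. The ce10 lists and the control were not used here. Depth is unknown.

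Summits were linked to genes of Ensembl annotation release 115 (WBcel235, which equals ce11) with Python 3.11.15, and drawn with matplotlib 3.10.9. Replicate summits were matched to a pooled summit within 100 bp. Sequence came from the RefSeq genome of the same build. Linking was tested on simulated data. No significance test was made. The 8 genes, the other lists and the motifs were chosen with earlier results of these data known. The text names all 8 CCT genes, every gene with a start within 1500 bp of a CCT summit, the 3 strongest optimal-linked genes of each other list and the 3 genes most like cct-8. Other genes were named after their values were seen. Alternatives were other windows, overlap in place of summits, the nearest start alone, the stronger part of each list, other match distances and leaving out a replicate.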

Additional observations from a re-analysis of the deposited data

How the results depend on the processing

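Of 46 results under another setting, 43 counts or values stayed within 1.5 times the reported count or within 1 SD of the reported signal or distance. This tolerance does not track which genes are counted. None reversed, but counts, distances and signals of a single group have no direction that could reverse. With 2 replicates, each replicate's signal always lies within 1 SD of their mean, so leaving out a replicate could not move a signal beyond the tolerance. Other match distances, 50 and 200 bp, could not either, since the replicate summits lay within 36 bp of the pooled ones. Linking each peak only to the protein-coding gene with the nearest start within 5000 bp changed all 5 counts of CCT genes, 3 of them beyond that tolerance. The optimal count went from 2 to 0, since both peaks lie nearer to the neighbour's start. The replicate 2 count went from 3 to 6, and the count in both replicates from 3 to 5, as summits farther away, such as those inside cct-5, then count. In replicate 1, a window from 2000 bp upstream gave 6 genes in place of 4, adding cct-3 and cct-5, and one from 500 bp gave 3, without cct-4. The count in both replicates was 3 to 4 when either replicate was left out, with cct-4 added when replicate 2 was dropped. The signal of cct-7 ranged from 24.5 to 45.8 between replicates. No paired analysis was possible because there is a single group. The pooled count was 4 under the nearest start, with cct-7 and cct-8 counted through weaker summits, cct-4 and cct-5 added and cct-1 lost. The replicate 1 count was 5 under that rule, with cct-5 added. There cct-1, cct-4 and cct-8 were counted through other summits, as the strongest in each window lay nearer to the neighbour's start. The lists give no read counts, so counting error is unknown.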
